A study of Homo sapiens with 3 samples.

Results

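AP-1 is a transcription factor built as a dimer of basic leucine zipper (bZIP) proteins. JUN family proteins can pair with each other or with FOS family proteins, while FOS proteins depend on a JUN partner to bind DNA. FOS, JUN, EGR1 and their relatives are immediate early genes, which growth factors and stress switch on within minutes through kinases and factors already present in the cell, and whose transcripts are short-lived. FOSL1, by contrast, is known to accumulate under lasting ERK signalling in invasive epithelial cancer cells.

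The 10 genes described here were chosen by symbol from 59719 gene names in an RNA-seq table of PC3 cells, an androgen-independent human prostate cancer line. They are the FOS family (FOS, FOSB, FOSL1 and FOSL2), the JUN family (JUN, JUNB and JUND) and 3 further immediate early genes (EGR1, IER2 and IER3). Each had 1 row in the table. The study asked how loss of USP16, a ubiquitin-specific protease, acts on these cells. It compared 1 library of control cells (shCON) with 1 library for each of 2 hairpins against USP16 (shUSP16#1 and shUSP16#2). The hairpins were carried by the pLKO.1 vector and stable populations were selected with puromycin, while the sources used here do not say whether the control vector carried a hairpin. The deposited values are TPM, a unit in which reads are divided by transcript length and scaled so that every library has an equal sum.

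With 1 library per condition, no difference below has a replicate check, and no test, SD or SE could be given. TPM holds no record of read depth, so counting error is unknown too. Differences are those of log2(TPM + 1) between a hairpin library and shCON, a scale on which low genes appear to differ less than they do. The 13637 genes whose mean level reached 1 TPM were compared, and a difference of at least 2-fold was counted as called. Of the 10 genes, 7 passed this minimum, and FOS, FOSB and EGR1 did not. USP16 itself was at 19.9 TPM in shCON, 3.5 TPM in shUSP16#1 and 1.08 TPM in shUSP16#2. The epithelial markers KRT8, KRT18, KRT19 and EPCAM lay between 136 and 958 TPM in the 3 libraries. The prostate luminal genes KLK2 and KLK3 were listed at 0 throughout. Of 8 markers of blood, endothelial and fibroblast cells, HBB and DCN were among those listed at 0 in every library, and the highest was COL1A1 at 4.19 to 10.7 TPM. In bulk RNA a lower level in every cell and expression in fewer cells cannot be told apart. The median difference of all compared genes was -0.17 in shUSP16#1 and -0.37 in shUSP16#2. For each compared member, differences from shCON relative to it are given beside the plain ones.

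Promoter sequences are shown for EGR1 and FOS, which stayed at or below 0.95 TPM in these cells, and for JUN and JUND, which were expressed, because the immediate early response is read through short elements close to the start site. RefSeq promoters (GRCh38.p14, 250 bases before to 50 after the start) were matched for 8 of the 10 genes, without FOSL1 and IER3. The 210 bases just upstream of the start are printed 5′ to 3′ on the gene's own strand, with matches to the searched motifs in capitals. EGR1 lies at chr5:138465269-138465478 on the plus strand, FOS at chr14:75278618-75278827 on the plus strand, JUN at chr1:58784048-58784257 on the minus strand and JUND at chr19:18281623-18281832 on the minus strand.
EGR1: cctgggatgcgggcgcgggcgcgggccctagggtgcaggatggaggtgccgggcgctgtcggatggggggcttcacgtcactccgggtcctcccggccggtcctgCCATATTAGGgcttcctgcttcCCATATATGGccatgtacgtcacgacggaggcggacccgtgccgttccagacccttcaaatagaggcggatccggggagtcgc
FOS: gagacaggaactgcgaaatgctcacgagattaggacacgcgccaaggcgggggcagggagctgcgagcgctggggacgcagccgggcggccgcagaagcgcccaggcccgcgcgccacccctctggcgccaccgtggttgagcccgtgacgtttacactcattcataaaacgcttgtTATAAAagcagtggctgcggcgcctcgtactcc
JUN: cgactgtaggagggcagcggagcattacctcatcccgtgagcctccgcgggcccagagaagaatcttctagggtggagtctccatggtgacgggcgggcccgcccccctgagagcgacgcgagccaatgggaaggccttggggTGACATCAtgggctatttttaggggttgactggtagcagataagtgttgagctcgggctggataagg
JUND: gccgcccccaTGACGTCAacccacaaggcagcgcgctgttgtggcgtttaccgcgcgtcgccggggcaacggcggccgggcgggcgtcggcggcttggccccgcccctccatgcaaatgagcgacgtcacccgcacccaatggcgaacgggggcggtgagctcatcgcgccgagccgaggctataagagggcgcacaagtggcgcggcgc

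The CArG box, the element bound by serum response factor, was found 2 times in the EGR1 promoter, starting 105 and 83 bases before the start, and in none of the other 7 matched promoters. It was present in 1.29% of 35116 RefSeq promoters of the same length. The cAMP response element TGACGTCA was found only in JUND among the 8 matched promoters, 200 bases before the start, against 1.85% of all promoters. JUN carried the TRE-like element TGACATCA, through which JUN is known to act on its own gene, 67 bases before the start (2.61% of all promoters hold it on either strand). The AP-1 element TGACTCA itself was found only in FOSL2, 4 bases after the start, against 4.95% of all promoters. TATAAA, searched on the gene's strand only, was present in FOS, FOSB and JUNB, 33, 30 and 31 bases before the start, against 7.33% of all promoters. The EGR site GCGTGGGCG, with GCGGGGGCG as its variant, matched none of the 8 (5.77% of all promoters). All motifs but TATAAA were read on both strands, and none of the matches overlapped. These are matches of letters in a short window, and no binding was measured. Near matches with other letters and elements outside the window would not be found, so a promoter without a match may still hold such an element.

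Levels of the members differed over more than 3 orders of magnitude, and their order was nearly the same in every library. IER3, which encodes a regulator of apoptosis and ERK signalling, was the most abundant, at 722 TPM in shCON, 791 TPM in shUSP16#1 and 699 TPM in shUSP16#2. It ranked 213, 186 and 223 among all gene names. FOSL1 came next and was the most abundant AP-1 subunit, at 277, 216 and 248 TPM. IER2, a nuclear protein of the growth factor response, was at 135, 142 and 129 TPM. Below it lay JUNB, JUND, JUN and FOSL2 in this order in all 3 libraries. The ranges of neighbouring genes over the 3 libraries did not overlap from IER3 down to JUN. JUN and FOSL2 did overlap, with JUN at 24.5 to 34.1 TPM and FOSL2 at 17.1 to 33.3 TPM. Since each of these ranges covers 3 conditions, it is a spread between conditions and not between replicates.

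**Figure D1:**
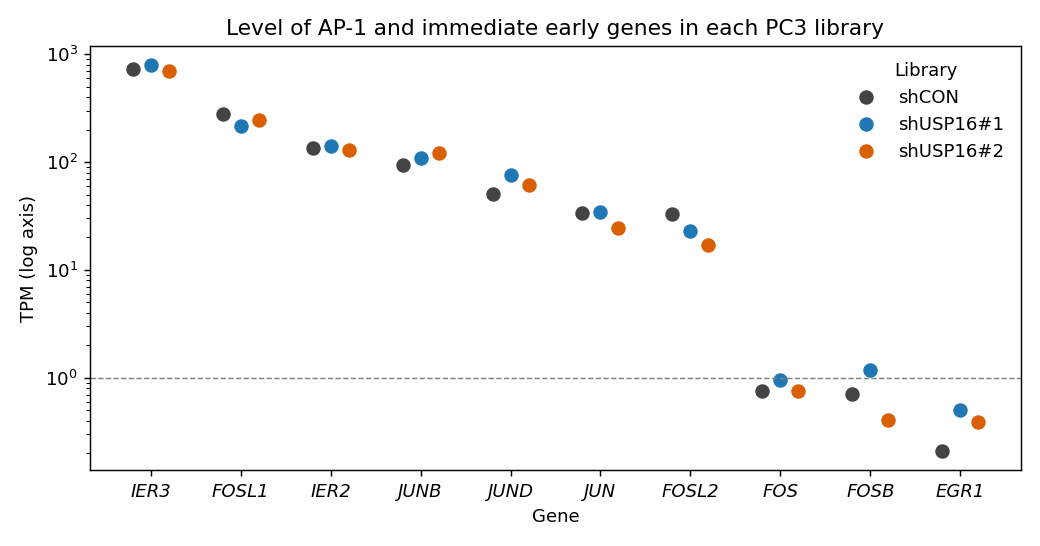
TPM of the 10 genes on a log axis in each library (points; 1 library per condition, so no error bars), ordered by mean level, with a dashed line at 1 TPM. IER3 lies at 699 TPM or above in every library, 7 genes lie at 17.1 TPM or above in all 3, and FOS, FOSB and EGR1 lie at or below 1.18 TPM.

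FOS, FOSB and EGR1, the members most strongly tied to acute induction, were the lowest of the 10 genes and the ones below the minimum of 1 TPM. FOS was at 0.75 TPM in shCON, 0.95 TPM in shUSP16#1 and 0.75 TPM in shUSP16#2. FOSB was at 0.71, 1.18 and 0.41 TPM. EGR1, a zinc finger factor of the same response, was at 0.21, 0.5 and 0.39 TPM. Their ranges over the 3 libraries overlapped between FOS and FOSB and between FOSB and EGR1, and no fold is given for them. FOSB also lies within the span of ERCC1, a gene on the opposite strand at 46.0 to 64.1 TPM, although the 2 genes share no exon bases in GENCODE 29.

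Most other genes of the same class were above that minimum. Of 33 further immediate early genes, 26 passed 1 TPM, among them CCN1, a secreted matrix protein gene, at 174 to 290 TPM. The 7 that did not were EGR2, EGR3, EGR4, NR4A2, NR4A3, BTG2 and ARC, which, like CCN1, were named after their values were seen. The highest single value among them was 1.03 TPM, for BTG2 in shUSP16#2. In the same libraries the members IER2, IER3, JUNB and FOSL1 were all at 94.7 TPM or above.

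Within the FOS family, FOSL1 accounted for 88.9% of summed TPM in shCON, 89.7% in shUSP16#1 and 93.1% in shUSP16#2. FOSL2 made up nearly all of the rest, with 10.7%, 9.43% and 6.42%. FOS and FOSB each held less than 1% in every library. In the JUN family, JUNB, often a weaker activator than JUN, had the largest share at 52.9%, 49.9% and 58.4%. JUND, the member usually expressed without stimulation, held 28.4%, 34.5% and 29.8%. JUN had the smallest share, 18.7%, 15.6% and 11.8%. Shares within a library do not depend on how libraries are scaled to each other.

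The summed TPM of the 7 AP-1 genes was 491 in shCON, 459 in shUSP16#1 and 474 in shUSP16#2. The sum thus stayed within a narrow band, while its makeup differed more. FOS family transcripts summed to 312, 241 and 266 TPM and JUN family transcripts to 179, 218 and 208 TPM. The ratio of FOS to JUN family TPM was 1.74 in shCON, 1.11 in shUSP16#1 and 1.28 in shUSP16#2. Both knockdown libraries lay below the control, by way of lower FOSL1 and FOSL2 and higher JUNB and JUND. With the trend of changes with GC content removed, an alternative chosen after seeing the data, the ratios in the hairpin libraries were 1.2 and 1.38.

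**Figure D2:**
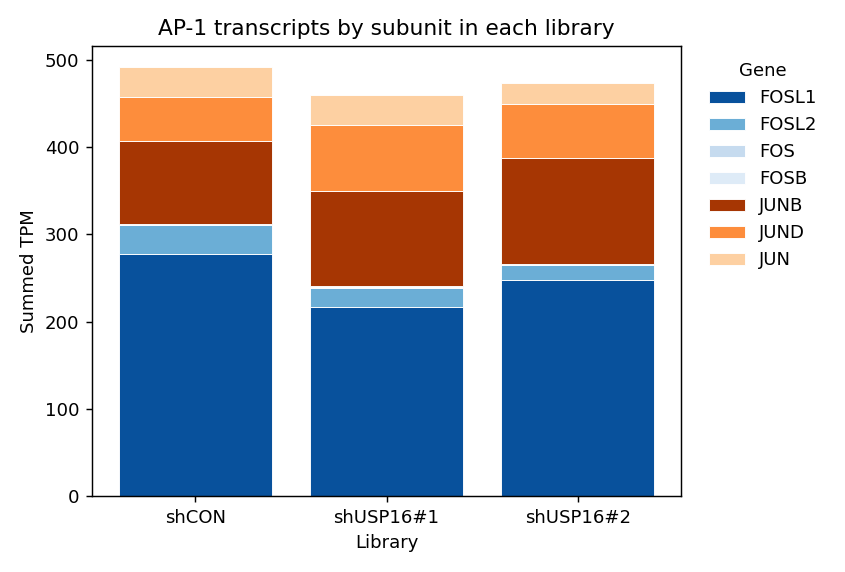
Summed TPM of the 7 AP-1 genes in each library (stacked bars; FOS family in blue, JUN family in orange and brown; 1 library per condition). The bars reach 491, 459 and 474 TPM, and FOSL1 holds 56.5%, 47.1% and 52.3% of them.

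No member was called in either knockdown. Of the 7 compared members, 0 were at least 2-fold lower in shUSP16#1, where 5.79% of all compared genes were, and 0 were at least 2-fold higher, against 2.84%. In shUSP16#2 the counts were likewise 0 of 7 lower, against 19.5% of compared genes, and 0 of 7 higher, against 2.8%. Under both hairpins together 4.6% of compared genes were called lower and 1.14% higher. At 1.5-fold, FOSL2 alone was counted, lower in shUSP16#2, where 38.5% of compared genes were lower and 7.33% were higher. In shUSP16#1 no member reached 1.5-fold, against 23.2% of compared genes lower and 8.73% higher. With 7 genes, counts of 0 or 1 do not set the members apart from these shares, and both comparisons use the same shCON library. The median difference of the 7 was 0.07 in shUSP16#1 and -0.07 in shUSP16#2, against -0.17 and -0.37 for all compared genes. With the GC trend removed, which leaves the medians of all genes unchanged, the middle value of the 7 was -0.24 in shUSP16#1 and -0.62 in shUSP16#2.

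FOSL2, a FOS family subunit known for lasting rather than acute expression, had the most negative differences from shCON under both hairpins. It was at 33.3 TPM in shCON, 22.7 TPM in shUSP16#1 and 17.1 TPM in shUSP16#2. The control was the highest of the 3 libraries and shUSP16#2 the lowest, with log2 differences of -0.53 and -0.92, or -0.36 and -0.56 relative to the median gene. In size, the difference of JUND in shUSP16#1 was slightly larger, at 0.56. These are unremarkable in size among all genes, since 26.5% and 22.7% of compared genes were lower still. The genes with the most similar pair of differences among 3910 genes within 2-fold of its mean level were APIP, TRIB1, C9orf78, RCAN1 and PSMC2, at Euclidean distances of 0.011 to 0.019 on the log2 scale. That likeness rests on 2 differences that share the control library.

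FOSL1 was also highest in the control, but its order between hairpins was the reverse of that of FOSL2. Its log2 differences were -0.36 in shUSP16#1 and -0.16 in shUSP16#2. Relative to the median gene they were -0.19 and 0.21, so its direction in shUSP16#2 depends on the scaling. The gene lies on chromosome 11 of GRCh38 (65892049 to 65900573, minus strand, GENCODE 29).

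In the JUN family, JUNB and JUND were above the control in both knockdown libraries. JUNB was at 94.7 TPM in shCON, 109 TPM in shUSP16#1 and 121 TPM in shUSP16#2, log2 differences of 0.2 and 0.35. JUND was at 50.8, 75.2 and 62.0 TPM, differences of 0.56 and 0.28, and the first of these was above those of 90.5% of compared genes. Relative to the median gene, JUNB was at 0.37 and 0.72 and JUND at 0.73 and 0.65. With the GC trend removed, which keeps the median of all genes in place, JUNB turned to -0.24 and -0.23, and JUND to 0.13 and -0.31. Relative to that median these were -0.07 and 0.14 for JUNB and 0.3 and 0.05 for JUND. JUNB shares 259 of its 1820 exon bases with HOOK2 on the opposite strand, which was at 39.3, 49.3 and 47.9 TPM, and the sources used here do not say whether counting used strand. JUN, the founding member of the family, showed no common direction in the deposited values. It was at 33.5 and 34.1 TPM in shCON and shUSP16#1 and at 24.5 TPM in shUSP16#2, differences of 0.02 and -0.44. Relative to the median gene, JUN was at 0.2 and -0.07. Removal of the GC trend put JUN below shCON under both hairpins, at -0.24 and -0.81. Those values were -0.07 and -0.44 relative to the median gene.

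IER2 and IER3 differed least between the deposited values of the 3 libraries. The log2 differences were 0.07 and -0.07 for IER2 and 0.13 and -0.05 for IER3. Relative to the median gene they were 0.24 and 0.3 for IER2 and 0.3 and 0.32 for IER3. Their largest differences between any 2 of the 3 libraries were 0.13 and 0.18, and 4.65% and 7.71% of compared genes had smaller ones. For FOSL2 that share was 69.7%. With the GC trend removed, the differences were -0.33 and -0.65 for IER2 and -0.13 and -0.42 for IER3, so both changed sign in shUSP16#1. Relative to the median gene these were -0.16 and -0.28 for IER2 and 0.05 and -0.05 for IER3. IER2 shares 946 of its 3072 exon bases with the antisense gene AC011446.2 (3.01 to 5.29 TPM) and IER3 shares 359 of 1356 with IER3-AS1 (at most 0.65 TPM).

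**Figure D3:**
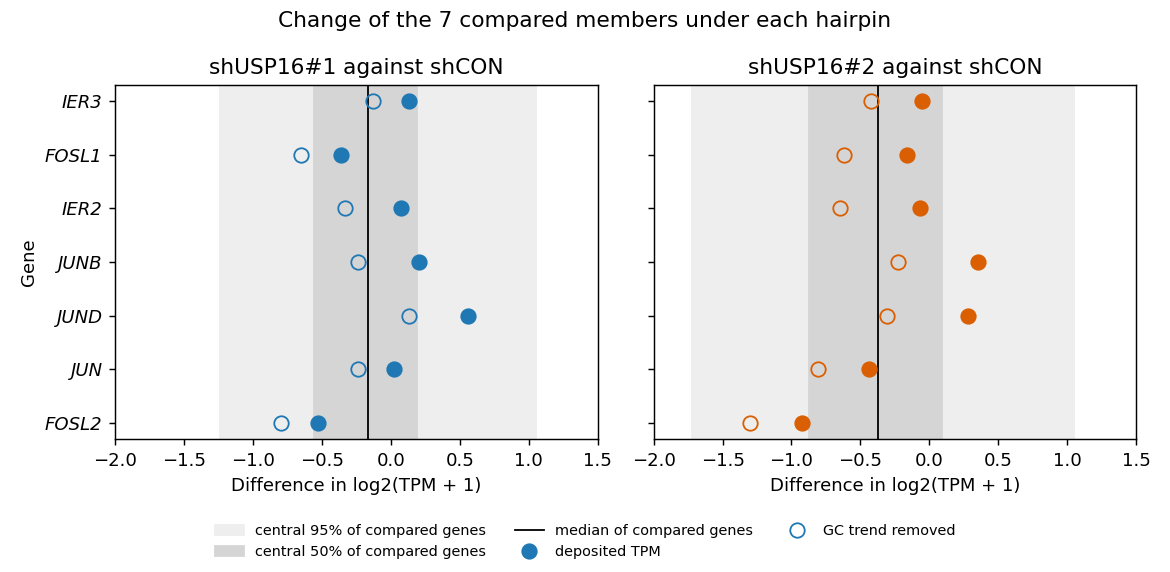
Difference in log2(TPM + 1) from shCON for the 7 compared members in shUSP16#1 (left) and shUSP16#2 (right), as deposited (filled) and with the GC trend removed (open). Shading marks the central 50% and 95% of all compared genes and the line their median (-0.17 and -0.37). No filled point reaches 1 in either direction, and each open point lies to the left of its filled one.

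Differences in these libraries follow the GC content of transcripts, and the members are rich in GC. GC content was 56.5% to 69.7% over the 7 compared members, with a median of 60.1%, against 50.4% for all compared genes. The 3850 compared genes in the same GC range had median differences of 0.16 in shUSP16#1 and 0.12 in shUSP16#2. In each knockdown 5 of the 7 members (FOSL1, FOSL2, JUN, IER2 and IER3) lay below these medians. With the GC trend removed, the log2 difference of FOSL1 was -0.65 and -0.62, and that of FOSL2 was -0.8 and -1.3. FOSL2 then passed 2-fold in shUSP16#2, and the share of all compared genes that did so on this scale is not given here. Relative to the median gene, the values were -0.48 and -0.25 for FOSL1 and -0.63 and -0.93 for FOSL2. On that footing FOSL2 fell short of 2-fold. The part of GC content in the differences of the members was not tested.

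Set against each other, the knockdown libraries also differed little in these genes. Of the 7 members, 0 were at least 2-fold lower in shUSP16#2 than in shUSP16#1, against 3.58% of compared genes, and 0 were higher, against 1.61%. At 1.5-fold the counts were again 0 and 0, against 16.6% and 3.39%. FOSL1 and JUNB were higher in shUSP16#2 than in shUSP16#1, by 0.2 and 0.16, and the other 5 members were lower, from -0.13 for IER2 to -0.46 for JUN. The median difference between these libraries over all compared genes was -0.21.

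Other bZIP genes, of the ATF, CREB, BATF, JDP and small MAF groups, were also compared, and their pairing with FOS or JUN was not measured. Of 14 such genes 11 passed the minimum, and 0 of these were called in shUSP16#1. In shUSP16#2, 3 were called lower, ATF1, ATF2 and CREB5, or 27.3% of them against 19.5% of all compared genes, and 0 higher. ATF2, a classic partner of JUN, was at 6.28 TPM in shCON, 4.63 TPM in shUSP16#1 and 1.81 TPM in shUSP16#2. Its difference of -1.37 in shUSP16#2 was -0.99 with the GC trend removed, just short of 2-fold. ATF4, the factor of the integrated stress response, was far more abundant and nearly level at 340, 369 and 351 TPM. The list's median differences were -0.15 and -0.45, against -0.17 and -0.37 for all compared genes. With the GC trend removed, which keeps the median of all genes in place, they were -0.27 and -0.77.

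Of the 26 compared immediate early genes outside the members, 1 was called lower in shUSP16#1 (3.85%, against 5.79% of all compared genes) and 0 higher. In shUSP16#2, 5 were called lower, a share of 19.2% that is near the 19.5% of all compared genes, and 2 higher, 7.69% against 2.8%. SGK1, a serum- and glucocorticoid-induced kinase, was called lower in both, at 22.8, 10.5 and 7.06 TPM. Its difference in shUSP16#1 was just past 2-fold at -1.05 and was -0.77 with the GC trend removed, which ends that call. KLF6, a zinc finger factor, was at 40.8, 21.8 and 15.8 TPM, and TIPARP, a mono-ADP-ribosyltransferase, at 33.9, 18.6 and 12.2 TPM. ID1, an inhibitor of helix-loop-helix factors, stood on the other side, at 97.5 TPM in shCON, 160 TPM in shUSP16#1 and 209 TPM in shUSP16#2. Its difference of 1.09 in shUSP16#2 was 0.72 with the GC trend removed. Neither of the 2 genes called higher there was then past 2-fold. The list's medians were -0.2 and -0.41, against -0.17 and -0.37 for all compared genes, and -0.3 and -0.74 with the GC trend removed.

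Genes that drive immediate early promoters had, in the deposited values, the highest share called lower against shCON of the 5 related lists under each hairpin. Of 21 compared, 4 were called lower in shUSP16#1 and 10 in shUSP16#2, 19% and 47.6% of them, beside the background of 5.79% and 19.5%, and 0 were called higher. Lower in both were MAPK8, RPS6KA5, ELK3 and ETS1. MAPK8 encodes the JUN kinase JNK and was at 24.4, 10.4 and 7.02 TPM. ELK3, a ternary complex factor that works with serum response factor, was at 27.7, 10.1 and 9.08 TPM. The ERK kinase MAPK3 was instead at 24.4, 37.2 and 37.9 TPM, and RPS6KA1, a kinase downstream of ERK, at 18.9, 31.2 and 29.5 TPM. GC content moved with this split, with 38% in MAPK8 and 47.2% in ELK3 against 60.5% in MAPK3 and 57.4% in RPS6KA1. With the GC trend removed, ELK3 stood at -1.13 and -1.26 and was still past 2-fold under both hairpins. MAPK8 (-0.75 and -0.97) and RPS6KA5 (-0.7 and -0.76) then passed in neither, and ETS1 (-0.67 and -1.52) in shUSP16#2 only. The list's medians of -0.19 and -0.89 were then -0.46 and -0.77.

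Among 16 compared genes that restrain AP-1 or EGR1, 1 was called lower in shUSP16#1 and 5 in shUSP16#2, 6.25% and 31.2% beside 5.79% and 19.5% of all compared genes, with 0 higher. NAB1, a corepressor that binds EGR1, was called in both, at 18.9 TPM in shCON, 5.29 TPM in shUSP16#1 and 5.79 TPM in shUSP16#2. FBXW7, the substrate receptor of a ubiquitin ligase that targets JUN, was at 3.63, 1.41 and 1.12 TPM. COP1, which belongs to another ligase of JUN, was at 1.37, 2.1 and 2.01 TPM. After removal of the GC trend, NAB1 stood at -1.46 and -1.25 and was the only gene of this list past 2-fold. The difference of FBXW7 in shUSP16#2 moved from -1.13 to -0.62. The medians of the list were -0.55 and -0.5, against -0.17 and -0.37 for all compared genes, and -0.36 and -0.63 with the GC trend removed.

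Genes with well-known AP-1 sites included some of the most abundant in these cells. Of 35, 28 were compared, and 1 was called lower and 1 higher in shUSP16#1, 3.57% each beside 5.79% and 2.84% of all compared genes. In shUSP16#2, 9 were called lower and 1 higher, 32.1% and 3.57% beside 19.5% and 2.8%. The medians were -0.34 and -0.8, against -0.17 and -0.37 for all compared genes, and -0.36 and -0.67 with the GC trend removed. The matrix metalloproteinase gene MMP9 was at 5.4, 3.04 and 0.52 TPM and the intermediate filament gene VIM at 96.4, 59.8 and 40.5 TPM. TIMP1, an inhibitor of metalloproteinases, was at 170 TPM in shCON, 563 TPM in shUSP16#1 and 255 TPM in shUSP16#2. HMGA1, a chromatin protein gene that AP-1 activates, was level at 1014, 1059 and 1050 TPM.

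**Figure D4:**
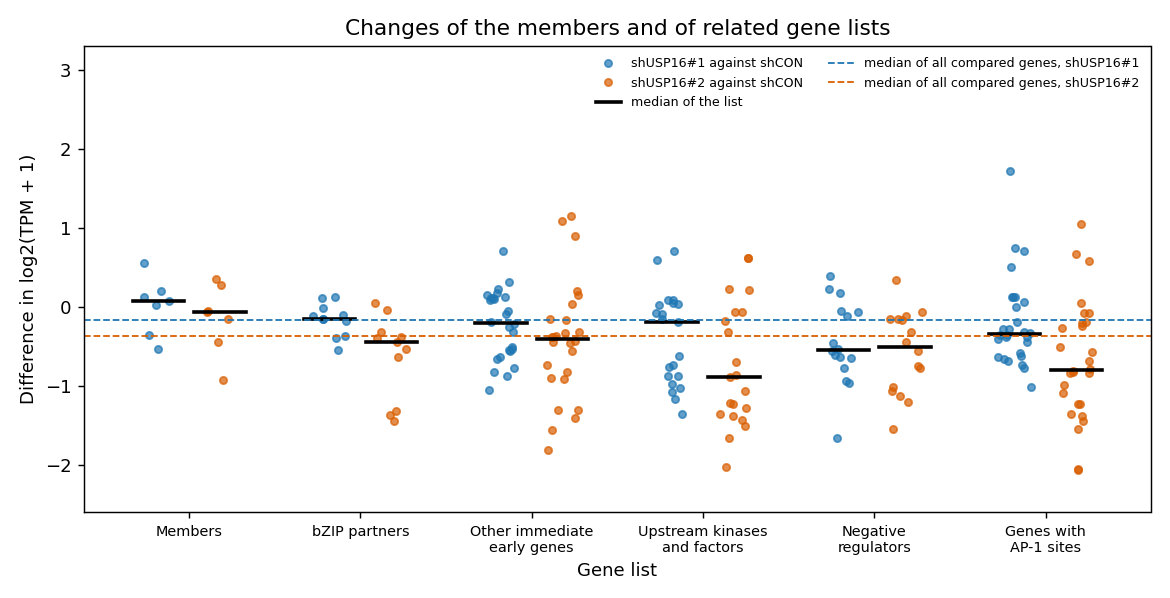
Difference in log2(TPM + 1) from shCON for each compared gene (points) of the members and of 5 related lists, in shUSP16#1 (blue) and shUSP16#2 (orange), with list medians as bars and the medians of all compared genes dashed. The medians of upstream kinases and factors (-0.89) and of genes with AP-1 sites (-0.8) in shUSP16#2 are the lowest of those drawn, while those of the members are 0.07 and -0.07. All values are as deposited, without removal of the GC trend.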

How the data were processed

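RNA-seq of PC3 cells was deposited as 1 table of 60930 genes, with TPM values to 2 decimals that the authors obtained from the Majorbio Cloud Platform, 1 column for each of 3 libraries. The submitters' processing notes name CASAVA, HISAT2 and hg19, while the quantification tool and annotation are not given in the sources used here. TPM columns repeated in the table (3) were not used. Of entries that share a name, the most abundant was kept and 1211 were left out. Of the gene IDs, 58516 matched GENCODE release 29 (GRCh38), from which positions, exons, gene types and GC content were taken, and 13296 of 13637 compared genes had a GC value. The members, gene lists and calls were chosen with earlier results of these data known.

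Differences were computed on log2(TPM + 1). In each list, besides the members and USP16, the 3 genes lowest and the 3 highest under both hairpins by the smaller difference could be named, and CCN1, CREB5, ETS1 and the immediate early genes under 1 TPM were added after their values were seen. The GC trend was removed by subtracting medians of 50 bins and adding back the overall median. Alternatives were a pseudocount of 0.1, centring, a minimum of 5 TPM or none, TPM rescaled without structural and mitochondrial RNA (7.25%, 6.71% and 10.7% of TPM in shCON, shUSP16#1 and shUSP16#2), median-of-ratios scaling over genes above 5 TPM, GC trend removal and a 1.5-fold threshold. Results for some listed genes are not reported here. The procedure was tested on simulated data. Python 3.11.15, numpy 2.4.6, pandas 2.3.3 and matplotlib 3.10.9 were used.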

Additional observations from a re-analysis of the deposited data

How the results depend on the processing

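No paired analysis was possible because there was a single library for shCON and for each hairpin, and for the same reason no library could be left out. The counts of members at least 2-fold lower or higher remained 0 in all 3 comparisons with a pseudocount of 0.1, centring, a minimum of 5 TPM, no minimum, rescaled TPM and median-of-ratios scaling. In shUSP16#2 against shCON the count lower was 1 with the GC trend removed and 1 at a 1.5-fold threshold, FOSL2 in each case. At 1.5-fold, 38.5% of compared genes were lower, while with the GC trend removed that share is not given here. There FOSL2 was at -0.93 relative to the median gene, short of 2-fold. Signs of the small differences were less firm. Of 21 differences of compared members, 7 changed sign with the GC trend removed, 5 with centring, 4 with median-of-ratios scaling and 1 with rescaled TPM. FOSL2 was lower than shCON under both hairpins in all of these, and FOSL1 was lower in shUSP16#1 in all of them. The ratio of FOS to JUN family TPM with the GC trend removed was the one alternative added after seeing the data. Of 15 list medians, 3 changed sign with centring and 1 with median-of-ratios scaling, each of them at most 0.2 in size before. With the GC trend removed, the medians in shUSP16#2 moved from -0.45 to -0.77 for the other bZIP genes and from -0.41 to -0.74 for the other immediate early genes. The depth of the libraries is unknown, so how far the values of FOS, FOSB and EGR1 under 1.18 TPM can be told apart is unknown as well.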

Other observations

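The hairpin libraries differed from each other in several secreted products of genes with AP-1 sites, which were chosen after their values were seen. Of 28 such genes, 6 were at least 2-fold lower in shUSP16#2 than in shUSP16#1, beside 3.58% of all compared genes. The chemokine gene CXCL8 was at 616 TPM in shCON, 462 TPM in shUSP16#1 and 149 TPM in shUSP16#2. The cytokine genes IL6 and IL11 followed the same order between hairpins, IL6 at 198, 198 and 71.9 TPM and IL11 at 12.8, 9.74 and 3.72 TPM. PLAU, the urokinase gene, was at 1028, 1675 and 872 TPM. Between the same libraries FOSL1 and JUNB differed by 0.2 and 0.16 on the log2 scale, and JUN by -0.46. With 1 library per hairpin, differences between hairpins and differences between cultures cannot be told apart.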
